A study of Mus musculus with 36 samples.

Results

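Nuclear genes of the respiratory chain and the ATP synthase were taken as a set of 90 protein-coding genes, out of 22225 on the nuclear chromosomes in the GENCODE vM1 annotation of the mouse genome build mm9. They were chosen by symbol alone: genes beginning with Ndufa, Ndufb, Ndufc, Ndufs or Ndufv (complex I), Sdha to Sdhd (complex II), genes beginning with Uqcr and Cyc1 (complex III), genes beginning with Cox4i, Cox5, Cox6, Cox7 or Cox8 (complex IV), and genes beginning with Atp5 (complex V). By group these were 38 complex I subunits, 4 complex I assembly factors (Ndufaf genes, which the symbol rule also takes), 4 complex II, 9 complex III, 18 complex IV and 17 complex V genes. Without the assembly factors and Atp5s and Atp5sl, 84 structural subunits remain, and subunits listed under other symbols are not in the set. Groups went by symbol alone, which puts Ndufa4 and Ndufa4l2 with complex I, whatever complex their products join. No measured value entered the choice. A gene was said to have a promoter peak where the midpoint of a ChIP-seq peak lay within 1 kb of the transcription start site (TSS) of any of its annotated transcripts.

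The inner mitochondrial membrane holds these complexes. Complexes I and II pass electrons from NADH and succinate to ubiquinone, complex III passes them on to cytochrome c and complex IV to oxygen, and the proton gradient built on the way drives complex V, the ATP synthase. A small part of the subunits is encoded by mitochondrial DNA and the others by nuclear genes, whose promoters are known for binding sites of the transcription factors NRF1, GABPA (of the ETS family), YY1 and ESRRA. Pluripotent cells use glycolysis as well as oxidative phosphorylation, and the balance can change as cells differentiate. Neither was measured here.

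The study mapped subunits of 2 histone deacetylase complexes and a zinc finger protein by ChIP-seq, and peak lists of 9 of its 36 samples were analysed here. MBD3 and CHD4, the methyl-CpG-binding domain protein and the ATP-dependent remodeler of the NuRD complex (nucleosome remodeling and deacetylase), were precipitated from wild-type R1 mouse embryonic stem cells (ESCs) grown in Serum/LIF +2i, with 2 replicates each, and from neural progenitor cells (NPCs) derived from those ESCs and kept in NPC medium, with 1 list each. SIN3A, the scaffold of another deacetylase complex, was precipitated from wild-type R1 ESCs in 2 preparations, the second of them with spike-in chromatin added. ZFP296 was precipitated through GFP with a GFP antibody, from R1 ESCs labelled as carrying a ZFP296-BAC (bacterial artificial chromosome), in 1 list. By the methods of the study, however, KH2 ESCs were transfected with GFP-tagged ZFP296, and the line could not be settled from the sources used here. The Zfp296 knockout clones were not analysed here. The lists held from 2304 peaks (NPC MBD3) to 29974 peaks (ESC CHD4 replicate 2), and each peak carries the authors' −log10 value, which can be compared only within a list. In ESC CHD4 replicate 2, labelled as wild type, every peak name mentions a Zfp219 BAC, so its main counts are given beside those of replicate 1. Peak lists hold no expression values, so the labelled cell types could not be checked against marker genes.

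The regions that carry the observations that follow are printed here 5′ to 3′ on the strand of the gene, read from mm9, with fixed strings in capitals. Capitals mark CCGGAAG or its reverse complement CTTCCGG (the ETS string), AAGATGGC (YY1), or GCGCATGC, which here overlaps its own reverse complement (NRF1). The ESRRA string was also searched in these regions, but the SP1 string GGGCGG was not marked. It stands in lower case in the Cox7a2 region, among others. The first 3 lie under CHD4 peaks of ESCs and NPCs alike: the peak of Ndufaf1 in ESC CHD4 replicate 2 (chr2:119488539-119488718, minus strand), the segment common to the CHD4 peaks of Cox5b in both ESC replicates and NPCs (chr1:36748037-36748164, plus strand), and the peak of Ndufa3 in ESC CHD4 replicate 2 (chr7:3568549-3568835, plus strand), the highest CHD4 value of the set.
Ndufaf1: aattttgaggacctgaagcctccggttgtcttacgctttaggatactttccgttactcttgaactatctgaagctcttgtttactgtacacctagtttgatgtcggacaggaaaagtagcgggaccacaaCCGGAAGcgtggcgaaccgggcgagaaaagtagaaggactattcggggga
Cox5b: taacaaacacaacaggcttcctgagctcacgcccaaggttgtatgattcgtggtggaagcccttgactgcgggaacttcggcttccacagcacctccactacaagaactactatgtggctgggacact
Ndufa3: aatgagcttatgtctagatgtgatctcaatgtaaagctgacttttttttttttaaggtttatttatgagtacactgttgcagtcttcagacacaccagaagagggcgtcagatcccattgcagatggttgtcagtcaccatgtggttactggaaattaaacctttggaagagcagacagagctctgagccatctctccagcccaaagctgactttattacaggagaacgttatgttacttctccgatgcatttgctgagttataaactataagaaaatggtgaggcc
The Ndufaf1 region reaches 19 bases into the 5′ untranslated part of the gene and holds the ETS string, while the other 2 lie outside exons and hold none of the NRF1, ETS, YY1 and ESRRA strings. The Ndufa3 region has a GC content of 40.8% and 3 CpG dinucleotides. Of 11 successive words of 25 bases in it, 9 occur at a single place in mm9 and 2 recur, the most frequent with 37 copies, so part of it is repeated sequence. The Atp5e regions are shown because this gene alone had an MBD3 peak: the ZFP296 peak (chr2:174289204-174289460, minus strand) lies in an exon of a transcript without annotated coding sequence, and the SIN3A peak of the preparation with spike-in (chr2:174289585-174289782, minus strand) spans the TSS.
Atp5e, ZFP296 peak: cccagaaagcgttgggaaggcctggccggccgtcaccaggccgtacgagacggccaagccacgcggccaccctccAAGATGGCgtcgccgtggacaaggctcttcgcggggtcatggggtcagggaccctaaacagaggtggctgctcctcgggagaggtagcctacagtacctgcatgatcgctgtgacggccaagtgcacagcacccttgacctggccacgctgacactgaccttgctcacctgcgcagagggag
Atp5e, SIN3A peak: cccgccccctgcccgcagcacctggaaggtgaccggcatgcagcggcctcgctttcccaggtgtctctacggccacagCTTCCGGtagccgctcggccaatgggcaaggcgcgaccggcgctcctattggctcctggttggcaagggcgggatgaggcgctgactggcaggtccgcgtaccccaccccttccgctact
The last 2 are the 250 bases before the 5′ end of a complex IV gene with the NRF1 string and a SIN3A peak, Cox6a1 (chr5:115798991-115799240, minus strand), and of a widely expressed complex IV gene with no peak in any list, Cox7a2 (chr9:79607661-79607910, minus strand). The Cox6a1 peak was found without spike-in alone (9.27, rank 11583 of 16170). This pair does not stand for the set, in which the NRF1 string is also at genes without any peak.
Cox6a1: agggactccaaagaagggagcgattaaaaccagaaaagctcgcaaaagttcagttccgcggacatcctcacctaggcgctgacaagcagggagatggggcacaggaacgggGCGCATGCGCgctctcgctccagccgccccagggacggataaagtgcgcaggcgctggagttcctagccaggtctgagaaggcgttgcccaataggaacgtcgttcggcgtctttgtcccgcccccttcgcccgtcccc
Cox7a2: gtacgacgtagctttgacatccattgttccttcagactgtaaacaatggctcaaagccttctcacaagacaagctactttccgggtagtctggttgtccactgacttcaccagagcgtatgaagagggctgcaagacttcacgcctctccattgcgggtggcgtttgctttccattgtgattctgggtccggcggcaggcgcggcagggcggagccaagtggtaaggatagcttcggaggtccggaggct
Cox6a1 has a GC content of 61.6% over these 250 bases and 22 CpG dinucleotides, and Cox7a2 has 54.8% and 14.

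SIN3A peaks were the most frequent mark of these promoters. In the list without spike-in, 66 of the 90 genes (73.3%, 95% exact interval 63.0 to 82.1) had a promoter peak, beside 41.3% of all protein-coding genes. With spike-in, 49 genes (54.4%, 43.6 to 65.0) had one, beside 33.9%. Both preparations together marked 44 genes (48.9%, 38.2 to 59.7), beside 30.4%. The ratio to all genes was 1.77, 1.61 and 1.61. These intervals cover counting error over genes only, and no test was made, since genes are not replicates. Base composition differed as well: 69 of the 90 genes (76.7%) had a CpG-rich promoter, against 44.2% of all genes. CpG-rich here means a GC content of at least 50% and an observed over expected CpG ratio of at least 0.6 within 500 bp of the 5′ end. Among CpG-rich promoters, SIN3A peaks stood at 55 of 69 respiratory chain genes (79.7%) and 75.0% of the 9832 genes in all without spike-in, and at 43 of 69 (62.3%) and 63.6% with spike-in. The share of respiratory chain genes was thus well above that of all genes and, at CpG-rich promoters, near that of all CpG-rich genes. Of the 21 genes without a CpG-rich promoter, 11 (52.4%) had a SIN3A peak without spike-in, against 14.6% of all such genes. With spike-in 6 (28.6%) had one, against 10.3%, so in this stratum the share was higher than in all such genes. Base composition was scored at the 5′ end of the gene only, while a peak counts at any TSS. At Ndufb8, in this stratum, the SIN3A peak lies at another TSS, so the stratum need not describe the promoter with the peak.

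**Figure D1:**
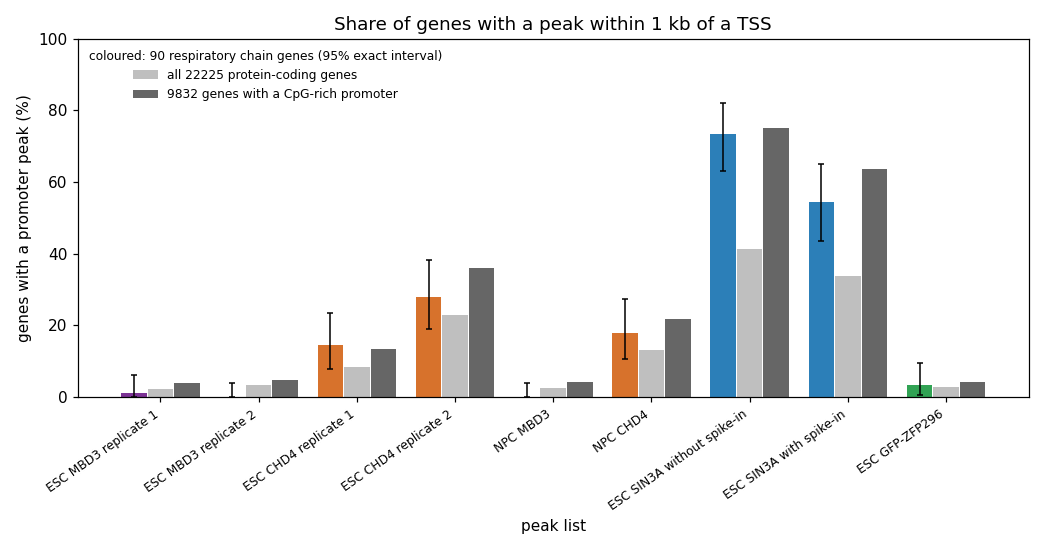
Share of genes with a promoter peak (y axis, percent) in each of the 9 peak lists (x axis): coloured bars are the 90 respiratory chain and ATP synthase genes with 95% exact intervals, light bars all 22225 protein-coding genes and dark bars the 9832 with a CpG-rich promoter. The SIN3A bars of the respiratory chain genes reach 73.3% and 54.4%, above the light and close to the dark bars, and both MBD3 bars of ESCs and that of NPCs are at or near 0.

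By complex, SIN3A peaks without spike-in were found at 28 of 38 complex I subunits (73.7%), all 4 assembly factors, 3 of 4 complex II genes, 7 of 9 complex III genes (77.8%), 10 of 18 complex IV genes (55.6%) and 14 of 17 complex V genes (82.4%). With spike-in the counts were 21, 4, 2, 5, 5 and 12 in the same order. Complex IV had the lowest share in both preparations, 27.8% with spike-in against 70.6% for complex V. Among the 66 genes the value ran from 6.64 to 28.0 with a median of 14.0, beside 14.2 over all genes with a promoter peak in that list. With spike-in it ran from 3.78 to 56.7 with a median of 9.79, the same as over all genes with a peak there. The peaks of these genes were therefore neither high nor low within their lists.

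The highest values without spike-in belonged to Ndufa5 (28.0), an accessory subunit of complex I, Ndufab1 (24.5), the mitochondrial acyl carrier protein, and Atp5sl (24.1), which the symbol rule takes with complex V although it is no structural subunit. With spike-in they belonged to Atp5b (56.7), the catalytic beta subunit of the ATP synthase, Ndufs7 (31.1), a complex I subunit that carries an iron-sulfur cluster, and Ndufa5 (30.6). Ndufa5 thus stood among the top 3 in both preparations. Atp5b did not: its value was 8.46 without spike-in, at rank 12499 of 16170 peaks, and 56.7 with spike-in, at rank 82 of 11422. The 2 Atp5b peaks overlap, but the one with spike-in is 485 bp wide and that without spike-in 154 bp. Where both preparations gave a peak at the same gene, the peaks overlapped by at least 1 bp at 41 of 44 genes (93.2%, all genes 94.9%), the exceptions being Atp5d, Cyc1 and Ndufa8. Preparation, spike-in and calling threshold differed between these lists and cannot be told apart.

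CHD4 peaks were less frequent. In ESCs 13 of 90 genes (14.4%, 7.92 to 23.4) had one in replicate 1, beside 8.50% of all genes, and 25 (27.8%, 18.9 to 38.2) in replicate 2, beside 22.9%. In both replicates 11 genes (12.2%, 6.26 to 20.8) had one, beside 6.81%: Atp5d, Atp5e, Atp5j2, Cox4i1, Cox5b, Cox6b2, Ndufa3, Ndufaf1, Ndufaf3, Ndufs3 and Ndufs7. These are 84.6% of the genes of replicate 1 and 44.0% of those of replicate 2, against 80.1% and 29.7% over all genes. The ratios to all genes, 1.70, 1.21 and 1.80, were above 1. They fell below 1 among CpG-rich promoters: 8 of 69 (11.6%) against 13.4% in replicate 1, 20 of 69 (29.0%) against 36.0% in replicate 2, and 7 of 69 (10.1%) against 10.6% in both. Of the 21 genes without a CpG-rich promoter, 5 (23.8%) had a peak in replicate 1, against 4.65% of all such genes, and 5 (23.8%) in replicate 2, against 12.5%. In both replicates 4 of them (19.0%) had one, against 3.81%. Here too a peak can lie at another TSS than the 5′ end that was scored, as at Cox7b in replicate 2. At 8 of the 11 genes the replicates' peaks overlapped (72.7%, all genes 85.8%), and at Atp5d, Atp5e and Ndufs7 they did not.

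CHD4 peaks in ESC replicate 1 were spread as 3 complex I subunits, 2 assembly factors, 4 complex IV and 4 complex V genes, with none in complexes II and III. Replicate 2 had 8, 3, 5 and 5 in the same groups, with 2 each in complexes II (Sdha and Sdhd) and III (Uqcr10 and Uqcrc1). The median value was 7.42 in replicate 1 (range 4.52 to 25.3), beside 7.70 over all genes with a peak, and 8.63 in replicate 2 (4.89 to 69.5), beside 8.89. Most of these peaks were of middling or low value. One gene stood apart. Ndufa3, a small accessory subunit of complex I, had values of 25.3 in ESC replicate 1, 69.5 in replicate 2 and 43.6 in NPCs, and no SIN3A peak. Its peak ranked 204 of 11712, 15 of 29974 and 62 of 20234, with midpoints at -293, -283 and -298 bp from the TSS, and it also lies within 1 kb of a TSS of Oscar, an immunoglobulin-like receptor of osteoclasts. It is the region printed above that is partly repeated and relatively poor in GC. Next in ESC replicate 1 came Cox5b (15.2) and Cox4i1 (rank 3669), and in replicate 2 Cox7b (24.0) and Ndufs7 (16.5). Cox4i1 and Cox5b are nuclear genes for subunits of cytochrome c oxidase, and the peaks of Cox4i1 also count for its divergent neighbour Cox4nb. Cox7b had a peak in no other list.

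**Figure D2:**
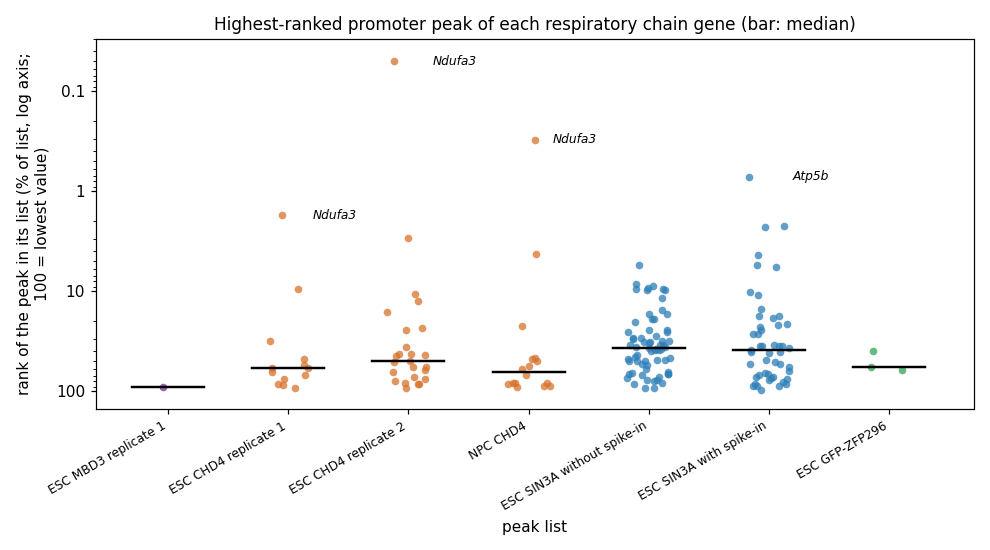
Rank of the highest promoter peak of each respiratory chain gene within its list (y axis, percent of the list on a log axis, 100 being the lowest value) for the 7 lists with such a peak (x axis). Bars are medians; Ndufa3 lies at 1.74%, 0.0500% and 0.306% in the CHD4 lists, and Atp5b at 0.718% in the SIN3A list with spike-in.

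In NPCs, CHD4 peaks were found at 16 of 90 genes (17.8%, 10.5 to 27.3), beside 13.2% of all genes, a ratio of 1.35 that was 0.870 among CpG-rich promoters (13 of 69). They were at 10 of 38 complex I subunits (26.3%) and 3 of 4 assembly factors, and at 1 complex IV (Cox5b) and 2 complex V genes (Atp5l and Atp5o). In ESC replicate 2 the counts were 8 and 3 in complex I, and 5 each in complexes IV and V. Of the 16 genes, 5 also had a CHD4 peak in ESC replicate 1, which is 31.2% of the NPC genes and 38.5% of the ESC genes, against 25.4% and 39.4% over all genes. With ESC replicate 2 the count was 11, which is 68.8% and 44.0%, against 57.5% and 33.1%. The share of NPC genes thus rested on which ESC list was taken. The peaks overlapped at 5 of the 5 genes and at 9 of the 11. The remaining genes had a CHD4 peak in neither ESC replicate, among them Ndufa5 (5.94), Ndufb6 (9.38), Ndufc1 (5.44) and the assembly factor Ndufaf2 (5.22). The median NPC value was 7.59, beside 8.74 over all genes with an NPC peak, and Ndufb6 alone of these named genes lay above it. An NPC peak without an ESC CHD4 peak was about as frequent among all genes (5.19%) as among respiratory chain genes (5.56%). With only peaks of value 10 or more, the ratio to all genes was 0.647 in NPCs, 0.896 in ESC replicate 2 and 1.33 in replicate 1. With a single NPC list, the spread between NPC cultures is unknown and the difference between cell types was not tested.

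Ndufaf1, an assembly factor of the membrane arm of complex I, had CHD4 values of 7.63 (rank 6425 of 11712) and 15.4 (3766 of 29974) in ESCs and 21.9 (864 of 20234) in NPCs. Cox5b had 15.2 (rank 1119) and 6.32 (22709) in ESCs and 6.16 (16659) in NPCs. At both genes the ESC replicates stood far apart within their lists. At Atp5o, a subunit of the stalk of the ATP synthase, the value was 12.1 in ESC replicate 2 and 13.0 in NPCs, with no peak in replicate 1. Values of different lists are not on a common scale and the lists differ in length, so no order between ESCs and NPCs is read from these values or ranks.

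MBD3 peaks were nearly absent. ESC replicate 1 had 1 of 90 genes (1.11%, 0.0281 to 6.04), beside 2.36% of all genes. Replicate 2 had 0 (0 to 4.02), beside 3.44%, and no gene had a peak in both, beside 0.949%. NPCs also had 0 (0 to 4.02), beside 2.50%. Among CpG-rich promoters the shares of all genes were 3.90%, 4.72% and 4.33%, and those of the respiratory chain genes 1.45%, 0 and 0. At these low background shares, 90 genes give few peaks to count, and the upper limits lie above the shares of all genes. A CHD4 peak in any of the 3 lists was found at 32 genes, and 31 of these (96.9%) had no MBD3 peak in any of the 3 MBD3 lists. Over all genes the same held for 5347 of 6624 (80.7%).

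The gene with an MBD3 peak was Atp5e, the epsilon subunit in the central stalk of the ATP synthase. Its MBD3 value in ESC replicate 1 was 4.80, at rank 2136 of 2344 peaks. The same gene had CHD4 peaks in both ESC replicates (6.78 and 7.95), a ZFP296 peak (7.23) and a SIN3A peak with spike-in (22.6, rank 496 of 11422), but none without spike-in. The MBD3 peak at 214 bp and the ZFP296 peak at 218 bp downstream of their nearest TSS overlap, and the CHD4 peak of replicate 2 at 180 bp overlaps both. The CHD4 peak of replicate 1 lies at 444 bp from that TSS and the SIN3A peak at -77 bp from a TSS further upstream, both apart from them. The ZFP296 region holds the YY1 string and the SIN3A region the ETS string, as printed above. ZFP296 peaks marked 3 genes (3.33%, 0.693 to 9.43), beside 2.88% of all genes. Besides Atp5e these were Ndufa8 (9.28), an accessory subunit, and Ndufv2 (7.71), a subunit of the NADH-oxidizing module, both with SIN3A peaks (8.87 and 3.78 for Ndufa8, 13.4 without spike-in for Ndufv2) and neither with a CHD4 or MBD3 peak. The Ndufa8 peak also counts for Morn5, on the other strand. All 3 values were near the median of 7.81 of genes with a ZFP296 peak.

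Across all 9 lists, 76 of the 90 genes (84.4%, 75.3 to 91.2) had at least 1 promoter peak, beside 52.4% of all genes. Among CpG-rich promoters the shares were 89.9% (62 of 69) and 87.4%. A SIN3A peak without any peak of the other 7 lists was the most frequent state, at 42 genes (46.7%, all genes 21.0%). A SIN3A and an ESC CHD4 peak stood together at 23 genes (25.6%, all genes 19.3%), and 4 genes had an ESC CHD4 peak without SIN3A: Cox7a1, Cox7b, Ndufa3 and Ndufc2 (4.44%, all genes 5.33%). By number of lists, 14 genes had 0, 22 had 1, 30 had 2, 10 had 3, 9 had 4 and 5 had 5, with none above. Genes with 5 or more lists made up 5.56%, beside 4.58% of all genes.

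**Figure D3:**
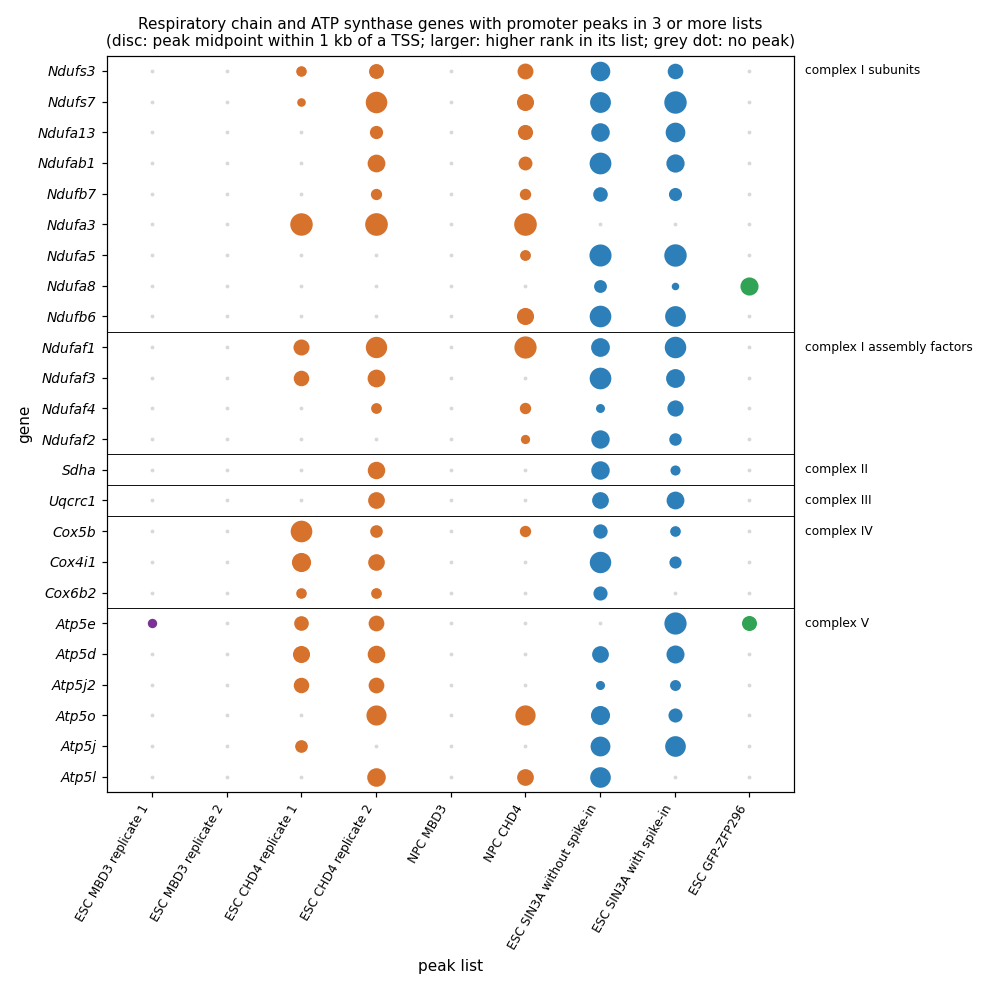
Promoter peaks of the respiratory chain genes with peaks in 3 or more lists (rows, grouped by complex and ordered by number of lists) in the 9 peak lists (columns). A disc is a gene with a peak, larger for a higher rank within its list, and a grey dot is none: 10 genes have 3 discs, 9 have 4 and 5 have 5, and the MBD3 columns hold 1, 0 and 0.

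The 5 genes with peaks in 5 lists were Ndufaf1, Ndufs3, Ndufs7, Cox5b and Atp5e. For the first 4 these were the CHD4 lists of ESCs and NPCs and both SIN3A lists. Ndufs3, a core subunit of complex I, had values of 5.22 and 7.61 for CHD4 in ESCs and 8.52 in NPCs, and of 15.6 and 7.76 for SIN3A. Its start lies 38 bp from that of Kbtbd4 on the other strand, and every one of its peaks counts for both genes. Ndufs7 had 4.52, 16.5 and 9.29 for CHD4, and 19.2 and 31.1 for SIN3A. Distances are from the nearest annotated TSS of the gene, which is not the same one for all peaks of Ndufs7 and Cox5b. The Ndufs7 peak in CHD4 replicate 1 (chr10:79711544-79711696) lies at -246 bp. That in replicate 2 (chr10:79711995-79712254) lies at -70 bp from a TSS further downstream. NPCs have a peak at each of these places, at -222 and -85 bp from the same TSSs. Ndufaf1 had SIN3A values of 14.2 and 16.4, with all 5 peak midpoints between -65 and -5 bp of the TSS. Cox5b had 9.74 and 5.52 for SIN3A, with midpoints at -25 and -28 bp from the more downstream of its TSSs. Its CHD4 midpoints lie further upstream, at -301, -156 and -240 bp from the other TSS. CHD4 and SIN3A midpoints thus lay close together at Ndufaf1 and further apart at Cox5b, where the CHD4 peaks of both ESC replicates still overlap a SIN3A peak.

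In complex II, which links the chain to the tricarboxylic acid (TCA) cycle, Sdha, the flavoprotein, had a CHD4 peak in ESC replicate 2 (8.93) and SIN3A values of 14.0 and 5.29. Sdhc, a membrane anchor, had SIN3A values of 23.4 and 12.5, and Sdhd, the other anchor, had a CHD4 value of 7.14 in replicate 2 and a SIN3A value of 15.4 without spike-in. Sdhb, the iron-sulfur subunit, had no peak in any list although its promoter holds the NRF1 string. Cyc1, a cytochrome of complex III, had SIN3A values of 12.8 and 6.85 and no other peak. No complex II or III gene had a CHD4 peak in ESC replicate 1 or in NPCs.

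The 14 genes without any peak, grouped by symbol, were Ndufa4l2, Ndufb4, Ndufb11 and Ndufs4 with complex I, Sdhb, Uqcr11 of complex III, Cox4i2, Cox6a2, Cox7a2, Cox7b2, Cox8b and Cox8c of complex IV, and Atp5g2 and Atp5k of complex V. Of these, 6 are isoforms known for expression in particular tissues or conditions. That group has 8 genes in all, Cox4i2 (lung, low oxygen), Cox6a2, Cox7a1 and Cox8b (heart and skeletal muscle), Cox6b2, Cox7b2 and Cox8c (testis) and Ndufa4l2 (low oxygen). A peak in any list was found at 2 of the 8 (25.0%) and at 6 of 7 widely expressed counterparts (85.7%), the exception being Cox7a2, beside 52.4% of all genes. Cox7a1 had a CHD4 peak in ESC replicate 1 alone (6.76). Cox6b2 had CHD4 values of 5.23 and 5.56 in ESCs and a SIN3A value of 9.55 without spike-in, whose midpoint lies 986 bp downstream of the TSS. None of the 8 had a CpG-rich promoter, and 5 of the 7 counterparts did (71.4%). Over all genes, a peak in any list was found at 24.6% of those without a CpG-rich promoter and at 87.4% of those with one. The share of the 8 isoforms was thus near that of all genes without a CpG-rich promoter. It was below that of the 21 respiratory chain genes without a CpG-rich promoter, these 8 included, of which 14 (66.7%) had a peak. Outside the isoforms, Uqcr11 alone of these 21 had none. Whether isoform class or base composition goes with the lower share was not tested in so few genes. In complex IV, which had the lowest SIN3A shares, 7 of the 18 genes are such isoforms, and 9 have a CpG-rich promoter.

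**Figure D4:**
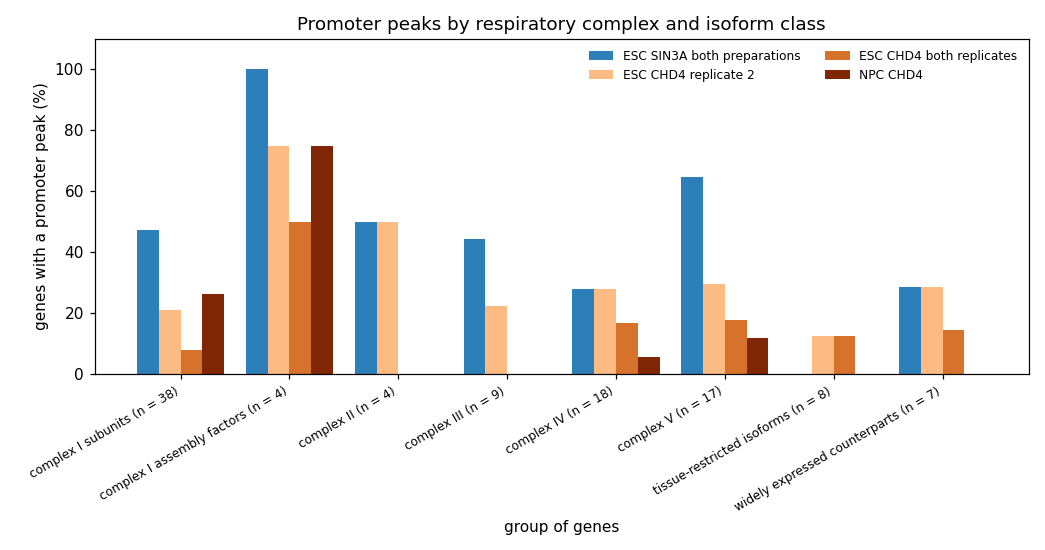
Share of genes with a promoter peak (y axis, percent) by group (x axis, with the number of genes) in both SIN3A preparations, ESC CHD4 replicate 2, both ESC CHD4 replicates and NPC CHD4. SIN3A in both preparations marks 11 of 17 complex V and 5 of 18 complex IV genes, NPC CHD4 peaks are mostly at complex I genes, and the tissue-restricted isoforms have no SIN3A peak in both preparations and no NPC CHD4 peak.

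Head-to-head gene pairs were frequent: 28 of the 90 genes (31.1%) had the TSS of another protein-coding gene on the opposite strand within 1 kb upstream, against 10.3% of all genes. Peaks near such starts cannot be given to either gene. Of the 28, 26 had a SIN3A peak without spike-in (92.9%), against 40 of the 62 others (64.5%), and over all genes the shares were 81.5% and 36.7%. In both preparations they were 18 of 28 (64.3%) and 26 of 62 (41.9%). For CHD4 in ESC replicate 1 they were 4 of 28 (14.3%) and 9 of 62 (14.5%), and over all genes 10.2% and 8.30%. In NPCs they were 3 of 28 (10.7%) and 13 of 62 (21.0%), and over all genes 17.2% and 12.7%. SIN3A peaks were thus more frequent at head-to-head promoters, in this set as in all genes. For CHD4 the counts in this set are small, and over all genes the shares were higher at head-to-head promoters. One pair joins a subunit with a regulator: Atp5j, a peripheral stalk subunit, starts 93 bp from Gabpa, the ETS factor known to act on respiratory genes. Both share the peaks of CHD4 in ESC replicate 1 (6.08) and of SIN3A (16.6 and 13.4).

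Fixed strings were searched on both strands from 250 bp before to 50 bp after the 5′ end, a window of 300 bp. The NRF1 string GCGCATGC was in 11 of the 90 promoters (12.2%), against 3.32% of all and 6.03% of CpG-rich promoters. The YY1 string AAGATGGC was in 10 (11.1%), against 3.30% and 4.76%. The ESRRA string TCAAGGTCA was in 2, Atp5g3 and Sdhd (2.22%), against 0.360% and 0.214%. Those 3 strings were more frequent than in either background. The ETS string CCGGAAG was in 17 (18.9%), against 10.8% of all but 18.7% of CpG-rich promoters, and the SP1 string GGGCGG in 41 (45.6%), against 43.5% and 72.9%. SIN3A peaks without spike-in were at 15 of the 17 genes with the ETS string (88.2%) and at 51 of the 73 without it (69.9%), but with spike-in at 58.8% and 53.4%. CHD4 peaks were at 3 (17.6%) and 10 (13.7%) in ESC replicate 1 and at 5 (29.4%) and 20 (27.4%) in replicate 2. Of the 11 genes with the NRF1 string, Atp5l, Cox6a1, Ndufa6, Ndufa11, Ndufaf4 and Uqcrc1 had a SIN3A peak without spike-in. The others, Sdhb, Uqcr11, Atp5g2, Atp5k and Cox8c, had no peak in any list. A match is a string of letters and says nothing on binding of these factors.

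SIN3A peaks lay closest to the start. Of 86 pairs of a respiratory chain gene and a SIN3A peak without spike-in, 67 had the midpoint within 250 bp of a TSS (77.9%, all genes 67.0%), and with spike-in 47 of 59 did (79.7%, all genes 70.0%). The median distances, without regard to side, were 93.5 and 81 bp, against 144 and 129 bp over all genes. For CHD4 they were 225.5 bp in ESC replicate 1, 180 bp in replicate 2 and 137 bp in NPCs, against 253, 195 and 185.5 bp. In NPCs 13 of the 17 peaks lay upstream and 4 downstream, and in ESCs 7 and 7 in replicate 1 and 14 and 13 in replicate 2. The sides were not counted over all genes and NPCs have 1 list, so no difference between cell types is read from them. In every list with more than 3 such genes, peaks of respiratory chain genes thus had a shorter median distance than those of all genes.

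**Figure D5:**
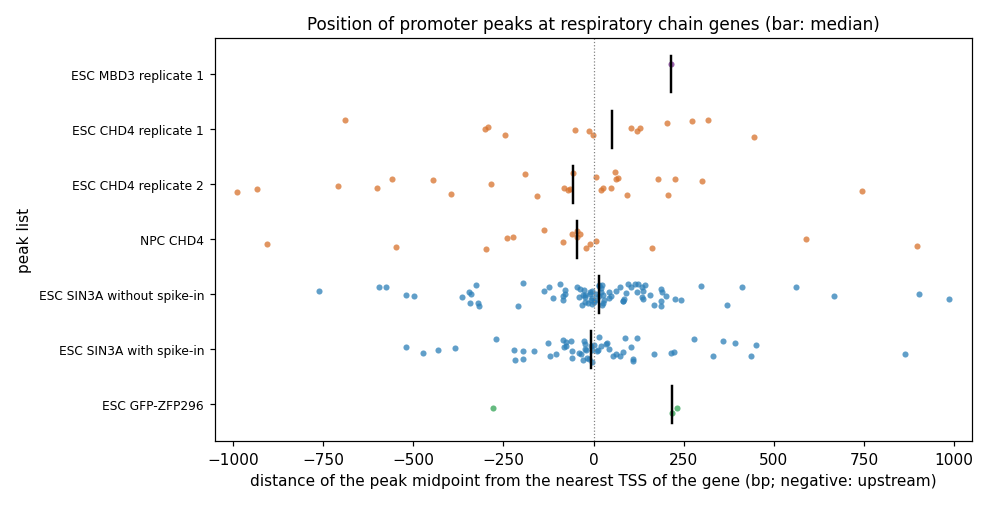
Distance of each promoter peak midpoint from the nearest TSS of its respiratory chain gene (x axis, bp, negative upstream) for the 7 lists with such a peak (y axis). Points are pairs of a gene and a peak, bars medians: the 86 and 59 SIN3A points gather within 250 bp of the start, and the CHD4 points are wider spread.

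Genes that serve the same pathway were looked at as fixed lists. Over all genes the SIN3A shares were 41.3% without and 33.9% with spike-in. Those of CHD4 were 8.50% and 22.9% in ESC replicates 1 and 2 and 13.2% in NPCs. The TCA cycle share for SIN3A with spike-in (38.5%) and the mitochondrial ribosomal share for CHD4 in ESC replicate 1 (9.21%) were near these. The 76 mitochondrial ribosomal protein genes, which translate the subunits encoded by mitochondrial DNA, had SIN3A peaks at 62 genes (81.6%) without and 54 (71.1%) with spike-in, CHD4 peaks at 7 (9.21%) and 26 (34.2%) in ESCs and 17 (22.4%) in NPCs. Assembly factors of complexes II to V had SIN3A peaks at 14 (73.7%) and 13 (68.4%) of 19 genes. The COX assembly factor Cox15 had an MBD3 peak in NPCs (10.3), unlike any of the 90 genes. Enzymes of the TCA cycle had SIN3A peaks at 12 (92.3%) and 5 (38.5%) of 13 genes, and regulators of mitochondrial gene expression at 14 (87.5%) and 11 (68.8%) of 16. Cytochrome c itself, Cycs, had a CHD4 peak in NPCs (16.5) and in neither ESC list, and SIN3A values of 17.8 and 6.04. The 81 cytosolic ribosomal protein genes, also widely expressed, had SIN3A peaks at 66.7% and 45.7% and CHD4 peaks at 7.41%, 9.88% and 12.3% in ESC replicates 1 and 2 and NPCs. The respiratory chain genes had higher shares than the cytosolic ribosomal protein genes in each of these 5 lists, but not in the ZFP296 list (3.33% against 7.41%) or the ESC MBD3 lists (1.11% and 0 against 1.23% and 1.23%). These differences were not tested.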

How the data were processed

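Peak lists (BED) of 9 samples were analysed, and 27 samples without a list were not analysed here. The authors mapped reads to mm9 with BWA, kept unique reads, removed duplicates and called peaks per sample with MACS2 2.0 (SAMtools is also named in the submitters' processing notes) with input chromatin of that cell line as control. The value deposited by the authors with each peak is on a −log10 scale; whether of p or q, and the reads behind it, are not given in the sources used here. Peak names carry a threshold of 0.001 (8 lists) or 0.0001 (SIN3A without spike-in). Peak names of the MBD3, CHD4 and ZFP296 lists mention normalized reads, and those of the SIN3A lists do not. Depth per sample is otherwise unknown, and levels were not compared between lists. Shares of different lists are therefore not on a common footing.

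Peak midpoints within 1 kb of a TSS (GENCODE vM1) were assigned to genes after pooling the 22367 protein-coding records by symbol into 22225 genes, 91 records giving the 90 members, and 1 symbol ending in -ps was left out. Samples were grouped by title. The study calls the ESC MBD3 lists biological replicates, and for CHD4 the sources used here do not say. Shares carry 95% exact (Clopper-Pearson) intervals for counting error. No test was made. The assignment was tested on simulated data, where 100 of 100 peaks placed within 1 kb of a TSS were recovered. Another 100 peaks were placed far beyond the window, where none could be assigned, and all were left unassigned. These say little on peaks just outside the window. Strings were searched on both strands; the ETS and YY1 strings can overlap in AAG. Of 22 assembly factors asked for, 19 were found. Gene lists, isoform classes and members were chosen with earlier results of these data known. Named are members in 5 or more lists, with an MBD3 or ZFP296 peak, among the 3 highest values of a list, tissue-restricted isoforms, complex II genes and Cyc1, and members without a peak; others named were chosen after their values were seen. A withheld item is not reported here by name. Alternatives were other windows, any overlap of a peak, a value of at least 10, equal list sizes, other TSS sets, structural subunits only, genes without a divergent neighbour, single lists and CpG-rich promoters. Tools were scipy 1.17.1, numpy 2.4.6, matplotlib 3.10.9 and pyfaidx 0.9.0.4 under Python 3.11.15.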

Additional observations from a re-analysis of the deposited data

How the results depend on the processing

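With only peaks of value 10 or more, the share of respiratory chain genes was 57.8% for SIN3A without spike-in (all genes 32.3%) and 25.6% with spike-in (16.4%), 3.33% (2.51%) and 7.78% (8.68%) for ESC CHD4 replicates 1 and 2, 3.33% (5.15%) for NPC CHD4, and 0 for ESC MBD3 replicate 1 (0.531%) and for ZFP296 (0.805%). Cut to the 2304 highest peaks, the lists gave 10% (9.18%) and 13.3% (9.52%) for SIN3A, and 2.22% in each CHD4 list (1.53%, 1.89% and 1.55%), so the SIN3A ratio without spike-in fell to 1.09. At CpG-rich promoters, an alternative chosen after the data were seen, the ratio was 1.06 and 0.980 for SIN3A and 0.868, 0.805 and 0.870 for CHD4. The share with CHD4 peaks in both ESC replicates ranged from 14.4% to 27.8% without replicate 2 or 1, and SIN3A without spike-in alone gave 73.3%. Within 500 bp to each side, the strings were found at 32.2% for ETS (all genes 19.1%), 25.6% for YY1 (7.82%), 8.89% for ESRRA (1.70%) and 73.3% for SP1 (60.1%). The other 93 values under alternatives stayed within the exact interval of the share or of the median, but against all genes some ratios crossed 1: those of CHD4 and of SIN3A with spike-in at CpG-rich promoters, as given, those at a value of 10 or more for ESC CHD4 replicate 2 (0.896), NPC CHD4 (0.647) and ZFP296 (0), and that of ZFP296 within 2 kb (0.900 from 1.16). No paired analysis was possible because the lists hold called peaks and the results come from no test. Peak lists give no reads, so a missing peak is no measure of absent binding.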

Other observations

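Beyond the promoters, from 1 to 10 kb of a TSS, MBD3 peaks were also few at respiratory chain genes. ESC replicate 1 had 1 gene (1.11%, all genes 3.16%), Atp5d, the delta subunit in the central stalk of the ATP synthase. Replicate 2 had 3 (3.33%, all genes 8.54%), Atp5d, Ndufb4 and Uqcr10, and NPCs had 0 (all genes 2.70%). ZFP296 peaks at that distance were found at 4 genes (4.44%, all genes 4.91%), Atp5d, Cox6a1, Cox7a1 and Ndufv2. CHD4 peaks in ESC replicate 1 were found there at 22 genes (24.4%), against 13.0% of all genes, at 32 (35.6%) against 28.5% in replicate 2, and at 17 (18.9%) against 18.7% in NPCs.

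Among regulators of mitochondrial gene expression, Polg, the polymerase of mitochondrial DNA, had peaks in 6 lists, with CHD4 values of 10.6 and 8.63 in ESCs and 8.96 in NPCs, SIN3A values of 23.0 and 5.87 and a ZFP296 value of 13.7. Gabpb2, a partner of GABPA, had CHD4 values of 8.88 and 47.5 in ESCs and 15.4 in NPCs. Pprc1, a coactivator of the PGC-1 family, had SIN3A values of 65.6 and 32.0, and Tfb2m, a transcription factor of mitochondria, had 40.5 and 21.1. No respiratory chain gene reached 40.5 in the list without spike-in, where their highest value was 28.0. Ppargc1a had no peak in any list. Taco1, an activator of the translation of a complex IV subunit, had peaks in 5 lists, among them ZFP296 (7.01). These genes were chosen for mention after their values were seen.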
